A study of Mus musculus with 18 samples.

Results

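Genes of the T cell surface that lie outside the CD28 family were followed through the RNA libraries of a study of G9a, the histone H3 lysine 9 methyltransferase encoded by Ehmt2. They are Lag3, Havcr2 (TIM-3), Tigit, Cd160, Cd96, Cd226, Entpd1 (CD39) and Cd200, chosen by symbol, and all 8 were found once each among the 23234 gene symbols of the table. All 8 had a mean of at least 0.5 FPKM (fragments mapped, per transcript length and library size) over the 10 libraries and were among the 11162 genes tested. The RNA came from C57BL/6 mouse T cells of spleen and lymph nodes after 4 weeks of expansion in lymphopenic surroundings. The groups were G9a knockout cells positive for both CD4 and CD8 (KO DP, 4 libraries), G9a knockout cells with CD8 alone (KO SP, 2 libraries) and G9a wild-type cells with CD8 alone (WT SP, 4 libraries). H3K9me3, the trimethyl mark of histone H3 lysine 9, was mapped in other cells, CD8 T cells of spleen that were Ehmt2+/+ or Ehmt2-/- and were cultured with antibodies to CD3 and CD28, with 2 libraries each. How the gene was deleted, in which cells, and whether animals were pooled is not given in the sources used here.

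These genes form several small signalling systems. LAG-3 resembles CD4 and binds MHC class II, and TIM-3 binds galectin-9 among other ligands; both restrain T cells that have been stimulated for long. TIGIT, CD96 and CD226 share the ligand CD155 (Pvr), with CD226 stimulating and TIGIT inhibiting, while CD160 binds the herpesvirus entry mediator (Tnfrsf14). CD39 is an enzyme that breaks down extracellular ATP on the path to adenosine, and CD200 is itself the ligand of an inhibitory receptor, CD200R. The set is named for inhibition, although CD226 is costimulatory and CD39 and CD200 are not receptors in the strict sense.

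Some facts about the libraries touch what follows. Summed FPKM ran from 183632 to 504013, lowest in replicates 4 and 3 of KO DP (183632 and 292872), and the median tested gene lay 0.38 lower in KO DP than in WT SP on the log2 scale, so values are also given after median-ratio scaling, which moves that median to -0.04. Titles carry numbers in 2 separate ranges whose meaning the labels do not state, 34 to 37 (KO DP and WT SP replicates 1 and 2) and 738 to 741 (the other libraries). The surface phenotype in the labels was borne out by Cd4, at 49.4 to 178 FPKM in KO DP and 0.144 to 0.495 FPKM in the CD8 single-positive libraries, with Cd8b1 at 248 FPKM or more in each; Ehmt2 RNA itself was still read in the 6 knockout libraries, at 7.28 to 23.6 FPKM against 18.1 to 42.6 in WT SP, which checks nothing without knowing the deleted part. WT SP replicate 2 stood apart from the other WT SP libraries in several of these genes and is shown singly throughout.

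Cd200 rose in KO DP cells. Its 4 KO DP values were 13.3, 18.3, 9.50 and 8.39 FPKM, while KO SP had 2.49 and 1.60 and WT SP had 0.323, 3.66, 0.463 and 1.10 FPKM (replicates in order). Every KO DP library lay above every library of both other groups, and above WT SP that was so for 3.4% of all tested genes. KO DP exceeded WT SP by 2.62 ± 0.40 (SE) in log2(FPKM + 1), with an adjusted p of 0.00265 in limma's test over all genes, and it was the only call among the 8 genes there, where 7.89% of all tested genes were called (2.86% higher and 5.03% lower). Cd200 was called in that comparison in each of the 22 settings run, with differences from 2.40 to 3.55. Against KO SP the difference was 2.09 ± 0.49 with an adjusted p of 0.0505, just outside the threshold of 0.05, and it was called in 5 of the 22 settings. The adjusted p was 0.0119 after scaling and 0.0149 without WT SP replicate 2, but 0.470 without KO SP replicate 2, 0.317 without KO SP replicate 1 and 0.110 without KO DP replicate 3. In bulk RNA, fewer cells of a type and less RNA per cell cannot be told apart, here and below.

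The receptor for CD200 moved in the same direction. Cd200r1, which passes an inhibitory signal into the cell that carries it, was at 28.7, 23.5, 18.3 and 14.2 FPKM in KO DP; KO SP had 2.48 and 3.66, while WT SP had 1.37, 5.01, 0.932 and 0.968. The groups did not overlap, and limma gave log2 differences of 2.99 ± 0.38 against WT SP (adjusted p 0.000857) and 2.42 ± 0.47 against KO SP (adjusted p 0.0234). The other 2 tested relatives, Cd200r2 and Cd200r4, were not called in any comparison, at differences of -0.17 and -0.59 between KO DP and WT SP.

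**Figure D1:**
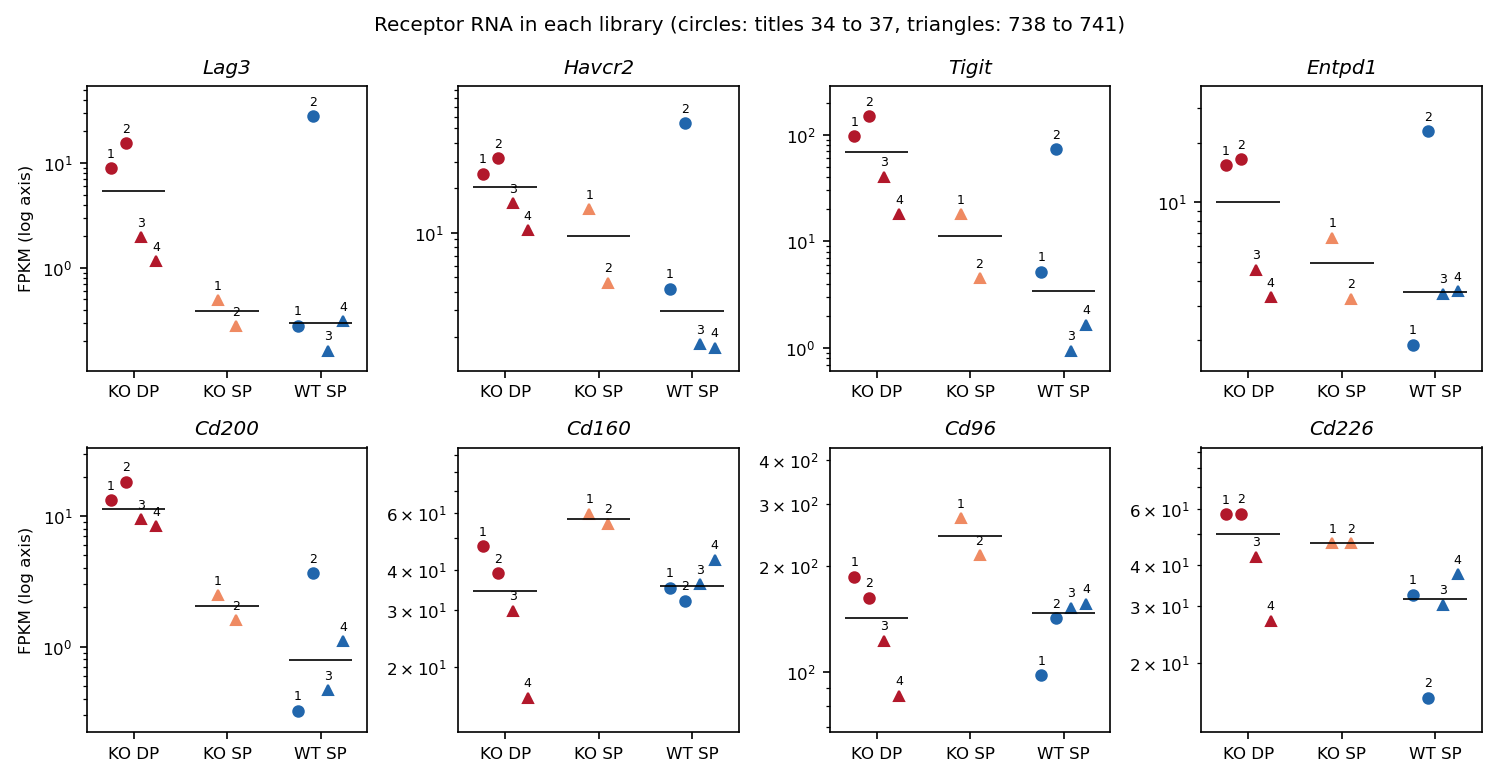
FPKM of the 8 genes in each library on log axes that differ between panels, with the replicate number above each point, a line at the group's median, circles for titles 34 to 37 and triangles for titles 738 to 741. Cd200 in KO DP (8.39 to 18.3) lies above all other libraries, whereas WT SP replicate 2 is the highest WT SP library for Lag3, Havcr2, Tigit, Entpd1 and Cd200.

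Lag3, Havcr2, Tigit and Entpd1 were higher in most KO DP libraries than in 3 of the 4 WT SP libraries, and the fourth, replicate 2, reached or passed KO DP. Tigit had 97.0, 148, 40.5 and 17.9 FPKM in KO DP. The KO SP libraries had 18.0 and 4.50, and those of WT SP 5.21, 72.7, 0.942 and 1.65. Its KO DP replicate 4 was just below KO SP replicate 1, and WT SP replicate 2 lay inside the range of KO DP. KO DP exceeded WT SP by 3.06 ± 1.02 (adjusted p 0.0875), the widest difference of the 8 in this comparison, but with a larger SE than that of Cd200.

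Havcr2 was at 24.8, 31.6, 15.7 and 10.4 FPKM in KO DP; KO SP had 14.4 and 4.61, while WT SP had 4.21, 54.0, 1.78 and 1.68. Its highest value of all 10 libraries was thus a wild-type one. Between KO DP and WT SP it differed by 1.56 ± 0.83 (adjusted p 0.237).

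Lag3 was low in all wild-type libraries but replicate 2. It was at 8.89, 15.5, 1.95 and 1.15 FPKM in KO DP. The KO SP libraries had 0.494 and 0.276, and those of WT SP 0.282, 27.9, 0.162 and 0.309, so that apart from replicate 2 every CD8 single-positive library was below 0.5 FPKM and every KO DP library above 1. KO DP and KO SP did not overlap, in the same direction as 4.44% of all tested genes. Lag3 adjoins Cd4 on chromosome 6 in the RefSeq annotation. The highest Lag3 value was in WT SP replicate 2, with 0.466 FPKM of Cd4. All other libraries with Lag3 above 1 FPKM were KO DP, with Cd4 at 49.4 to 178 FPKM. A link between the 2 genes was not tested. From WT SP, KO DP differed by 1.05 ± 0.97 (adjusted p 0.456).

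Entpd1 was at 15.4, 16.5, 4.56 and 3.31 FPKM in KO DP; KO SP had 6.60 and 3.26, while WT SP had 1.91, 22.8, 3.46 and 3.55. Here KO DP replicates 3 and 4 lay within the range of the KO SP libraries, and the 2 high KO DP values were both from titles 34 and 35. The difference from WT SP was 0.57 ± 0.65 (adjusted p 0.541).

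Leaving out WT SP replicate 2 changed the calls of this set. Without it, 4 of the 8 genes were called higher in KO DP than in WT SP, where 10.5% of all tested genes were called and 4.58% were called higher. They were Lag3 (2.18 ± 0.60, adjusted p 0.0424), Havcr2 (2.56 ± 0.47, adjusted p 0.00798), Tigit (4.20 ± 0.72, adjusted p 0.00550) and Cd200 (3.01, adjusted p 0.000432). The same 4 genes did not overlap between KO DP and the remaining 3 WT SP libraries, as was so for 6.96% of tested genes. Replicate 2 was itself high in Lag3, Havcr2 and Tigit, so its removal widens their differences by construction. These calls are therefore no separate support for a difference. With any other single library left out, Cd200 stayed the only call. Taking same-numbered replicates as pairs, 2 genes were called with all libraries kept, where 12.9% of tested genes were: Cd200 again and Tigit, whose adjusted p became 0.0102 at the same difference. With title range as a covariate the same pair was called, against 19% of tested genes, and with both scaling and WT SP replicate 2 left out (a setting chosen after seeing the data) all but Cd160 and Cd96 were called higher, 6 of the 8, against 24.5% of tested genes.

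WT SP replicate 2 was the highest WT SP library for 5 of the 8 genes, where 33% of tested genes had it highest. For Lag3, Havcr2 and Entpd1 it was the highest of all 10 libraries, which held for 11.9% of tested genes. In 5 of the 8 genes it exceeded the median of the other 3 WT SP libraries by more than 1 in log2(FPKM + 1), as did 8.14% of tested genes, by 4.80 for Tigit, 4.49 for Lag3, 4.31 for Havcr2, 2.42 for Entpd1 and 1.67 for Cd200. For Cd226 the same library was the lowest of the 10.

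Markers of other cells also stood higher in that library. Its summed FPKM was 211 over 12 myeloid markers against 15.3 to 68.9 in the other WT SP libraries, 40.8 over 8 dendritic cell markers against 7.88 to 15.2, 88.4 over 8 natural killer cell markers against 12.4 to 51.7, and 10.5 over 7 regulatory T cell markers against 1.58 to 3.11. Erythroid markers summed to 1006 FPKM in it and to 5.66 to 468 in the others, while 9 B cell markers (45.5 against 37.3 to 109) did not separate it. A few genes carried these sums: Itgax made up 36.3 of the dendritic 40.8 FPKM, while Flt3 (0.121 FPKM) was lower than in each other WT SP library. Among the natural killer cell markers, Tyrobp (26.9 FPKM) and Fcer1g (21.0 FPKM), which myeloid cells also express, and Klre1 (38.4 FPKM) were the most abundant, while Ncr1 (0.406 FPKM) and Klrb1c (0.365 FPKM) were below their 0.989 and 0.956 FPKM in WT SP replicate 1. None of the myeloid, dendritic or natural killer cell markers was at 0 in replicate 2, and Foxp3, which defines regulatory T cells, was at 0 in all 4 WT SP libraries. KO DP libraries spanned 18.0 to 205 FPKM over the myeloid markers and 24.0 to 111 over those of regulatory T cells.

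Among markers of gamma-delta T cells, Cd163l1 separated the genotypes, at 19.2 to 65.0 FPKM in KO DP, 98.5 and 103 FPKM in KO SP and 2.74 to 6.35 FPKM in WT SP. Blk overlapped between them, at 1.05 to 1.85 FPKM in KO DP, 0.636 and 1.17 FPKM in KO SP and 0.203 to 2.02 FPKM in WT SP, and Sox13 was below 0.2 FPKM in every library. The part of these cells in the receptor values was not tested.

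Cd160, Cd96 and Cd226 were abundant in every library, and their KO DP and WT SP values overlapped. Cd96, the most abundant of the 8 by mean FPKM in each group, was at 186, 162, 122 and 85.6 FPKM in KO DP. The KO SP libraries had 272 and 214, and those of WT SP 97.9, 142, 152 and 156. Cd160 was at 47.3, 39.0, 29.9 and 16.1 FPKM in KO DP; KO SP had 59.5 and 55.4, while WT SP had 35.2, 32.0, 36.1 and 43.0. For both genes KO SP held the 2 highest libraries of the 10.

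Neither gene differed between KO DP and WT SP beyond the spread, at -0.01 ± 0.31 for Cd96 (adjusted p 0.979) and -0.23 ± 0.32 for Cd160 (adjusted p 0.614). After scaling both signs turned, to 0.39 and 0.16. Between KO DP and KO SP the differences were -0.85 ± 0.38 and -0.88 ± 0.39 (adjusted p 0.201 and 0.204), and both genes were lower in KO DP without overlap, as were 35.5% of tested genes.

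Cd226 was at 57.7, 57.9, 42.5 and 27.0 FPKM in KO DP. The KO SP libraries had 46.8 and 46.9, and those of WT SP 32.5, 15.6, 30.3 and 37.6. Only KO DP replicate 4, the library with the lowest summed FPKM, fell within the WT SP range. The difference from WT SP was 0.66 ± 0.34 (adjusted p 0.222), and after median-ratio scaling 1.06 ± 0.24 with an adjusted p of 0.0152 and no overlap between the groups (9.43% of tested genes lay higher without overlap on that scale). After scaling 3 of the 8 genes were called: Cd226 and Tigit (3.42 ± 1.01, adjusted p 0.0428) joined Cd200 (2.93, adjusted p 0.000749), where 18% of all tested genes were called (9.2% higher).

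**Figure D2:**
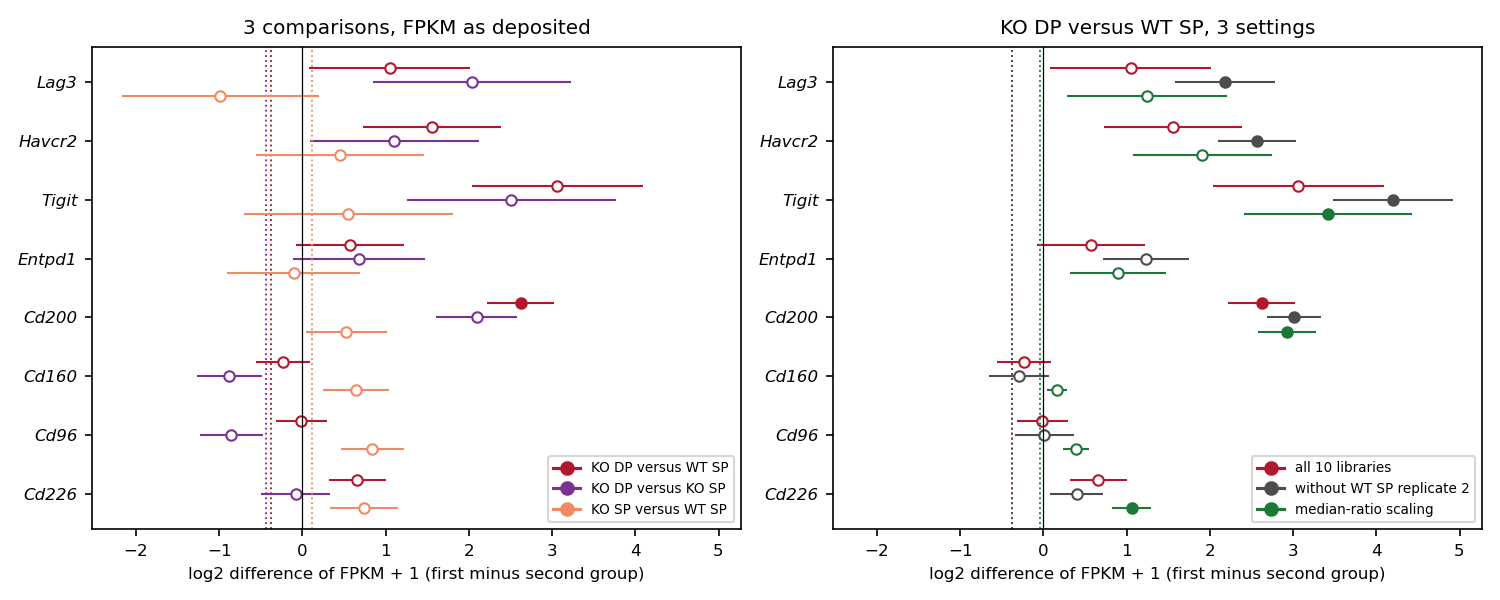
Differences in log2(FPKM + 1) with their SE from limma, filled where the adjusted p is under 0.05; dotted lines mark the median of all tested genes in the same colour. Left, the 3 comparisons with all libraries as deposited, where Cd200 in KO DP versus WT SP (2.62) is the only filled point; right, KO DP versus WT SP in 3 settings, with 4 filled points without WT SP replicate 2 and 3 after scaling.

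The comparison within the knockout, KO DP against KO SP, asks which of the genes go with CD4 on CD8 cells that lack G9a. No member was called at an adjusted p under 0.05 in limma, where 2.07% of tested genes were. At an unadjusted p under 0.05 there were 3, Cd200 higher and Cd160 and Cd96 lower, against 2621 of the 11162 tested genes in either direction. Tigit differed by 2.51 ± 1.25 (adjusted p 0.241), Lag3 by 2.04 ± 1.18 (adjusted p 0.296) and Havcr2 by 1.10 ± 1.01 (adjusted p 0.493). Entpd1 and Cd226 differed by 0.68 and -0.08. Cd200 alone was called after scaling (5.91% of tested genes), with title range as a covariate (4.19%) and without WT SP replicate 2 (2.91%).

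KO DP replicates 3 and 4 carry the same title numbers, 738 and 739, as the KO SP libraries; what a shared number means is not stated. The calls changed when these 4 libraries were fitted alone with title number as a block: Lag3 (0.87 ± 0.20, adjusted p 0.000244), Tigit (1.45 ± 0.48, adjusted p 0.0143) and Cd200 (1.72 ± 0.45, adjusted p 0.00128) were higher in KO DP and Cd160 lower (-1.34 ± 0.48, adjusted p 0.0213). That fit has 1 residual degree of freedom and called 41.1% of all tested genes, 4.43% higher and 36.7% lower in KO DP. Within both title numbers Lag3, Havcr2, Tigit and Cd200 were higher in KO DP, and Cd160, Cd96 and Cd226 lower. Havcr2 differed by only 0.12 in title 738, and the median of all tested genes over these libraries was -0.89. After scaling Cd226 was higher in KO DP in both titles (0.57 and 0.50), and Cd96 differed by -0.43 and -0.02. The share of tested genes with the same sign in both titles was not computed.

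Knockout and wild-type cells with CD8 alone were compared on 2 and 4 libraries. No member was called in limma's test in any of the 20 settings, and with all libraries as deposited 0.116% of tested genes were. Cd96 was the only one of the 8 at an unadjusted p under 0.05, against 384 of the 11162 tested genes. It was 0.84 ± 0.38 higher in KO SP. Cd160, Cd96 and Cd226 lay higher in KO SP than in every WT SP library, as did 21.1% of tested genes. Within titles 738 to 741, which hold 2 libraries of each, 6 of the 8 genes were higher in both KO SP libraries than in both WT SP libraries, against 36.1% of tested genes. Tigit (18.0 and 4.50 against 0.942 and 1.65 FPKM) and Havcr2 (14.4 and 4.61 against 1.78 and 1.68 FPKM) differed most there, by 2.17 and 1.77 in log2(FPKM + 1). These tests cannot show a small difference: the SE was 1.25 for Tigit and 1.01 for Havcr2 over all libraries.

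Title ranges were then taken one at a time, since each holds 2 KO DP and 2 WT SP libraries. Cd200 differed between KO DP and WT SP by 2.74 in titles 34 to 37 and by 2.50 in titles 738 to 741, and Tigit by 2.50 and 3.63, without overlap in either range. Havcr2 differed by 0.78 and 2.34, Lag3 by 1.07 and 1.03, and Entpd1 by 1.03 and 0.12. In the first range KO DP exceeded WT SP without overlap in 5 of the 8 genes (29.7% of tested genes), and in the second in 4 of the 8 (10.2% of tested genes).

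Cd160, Cd96 and Cd226 changed sign or vanished between the ranges, at 0.35, 0.56 and 1.32 in the first and -0.81, -0.58 and 0.01 in the second, while the median of all tested genes went from 0.05 to -0.82. No member's difference between ranges passed limma's interaction test, where 0.466% of tested genes were called. Those 3 genes had an unadjusted p under 0.05, as did 4784 of the 11162 tested genes. After scaling no member did, against 1512 of the tested genes.

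KO DP libraries also differed among themselves. As deposited, both libraries of titles 34 and 35 were above those of titles 738 and 739, which have the lowest summed FPKM, for each of the 8 genes. The size factors, medians over many genes, were 1.17 and 1.17 in the former and 0.747 and 0.469 in the latter. The share of all tested genes with this split was not computed. The highest value was 13.4 times the lowest for Lag3, 8.28 times for Tigit, 4.99 times for Entpd1 and 3.05 times for Havcr2. For Cd160, Cd200, Cd226 and Cd96 it was 2.93, 2.18, 2.15 and 2.17 times. After scaling the split held for Lag3 (2.46 to 13.2 FPKM), Tigit (38.2 to 126 FPKM) and Entpd1 (6.10 to 14.1 FPKM) and was lost for Havcr2 (21.0 to 26.9 FPKM), Cd160 and Cd200. It turned round for Cd226, with 49.1 and 49.3 FPKM in titles 34 and 35 against 56.9 and 57.5 FPKM in titles 738 and 739, and for Cd96, with 158 and 138 FPKM against 164 and 182 FPKM.

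Markers of other cells went with the title ranges too. Erythroid markers summed to 468 to 1213 FPKM in titles 34 to 37 and 1.32 to 57.3 FPKM in titles 738 to 741, and myeloid markers to 68.9 to 211 FPKM and 15.3 to 36.4 FPKM. Their part in the receptor values was not tested.

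Ordered by mean FPKM, which is a value per transcript length, KO DP ran from Cd96 (139 ± 44.2, SD, n = 4) through Tigit (75.9 ± 58.6), Cd226 (46.3 ± 14.7), Cd160 (33.1 ± 13.4), Havcr2 (20.6 ± 9.43), Cd200 (12.4 ± 4.47) and Entpd1 (9.96 ± 6.98) to Lag3 (6.86 ± 6.70). Tigit and Cd226, and Cd200 and Entpd1, were neighbours that changed places from library to library, while each other gene lay above the next one in all 4. In KO SP the order was Cd96, Cd160, Cd226, Tigit, Havcr2, Entpd1, Cd200 and Lag3, and of these neighbours only Tigit and Havcr2 changed places between the 2 libraries. In WT SP, Cd96 came first in all 4 libraries, and Cd160 and Cd226 followed it in 3 of them. In replicate 2, Tigit (72.7 FPKM) and Havcr2 (54.0 FPKM) lay above Cd160 (32.0 FPKM), and its values set the means of Tigit (20.1 ± 35.1), Havcr2 (15.4 ± 25.8), Entpd1 (7.93 ± 9.95) and Lag3 (7.16 ± 13.8).

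The paired receptors for CD155 can be read as ratios within a library, which no scaling alters; these 3 ratios were chosen after the values were seen. The FPKM ratio of Tigit, the inhibitory partner, to Cd226, the stimulating one, was 1.68, 2.56, 0.952 and 0.664 in KO DP; KO SP had 0.385 and 0.0960, while WT SP had 0.160, 4.66, 0.0311 and 0.0438. WT SP replicate 2 had the highest ratio of all, and the other wild-type libraries were below every KO DP library. A two-sided exact permutation test on the log2 ratio gave p = 0.171 between KO DP and WT SP. The same exact permutation test without WT SP replicate 2 gave p = 0.0571, the smallest that 4 against 3 libraries allow. Leaving out the only WT SP library that was not below every KO DP library separated the groups by construction. The second value is therefore no separate support for a difference. Cd96 to Cd226 was 2.80 to 3.23 in KO DP and 3.01 to 9.09 in WT SP, with an exact p = 0.0857, and adjusted over the 3 ratios the p was 0.129 for it and for Tigit to Cd96.

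Across the 10 libraries the 8 genes fell into those that followed one another and those that did not. Pearson's r of log2(FPKM + 1) was 0.96 for Havcr2 and Tigit, 0.94 for Lag3 and Entpd1, 0.88 for Lag3 and Havcr2 and 0.88 for Tigit and Cd200. Cd160 and Cd96 had an r of 0.89 with each other, and between -0.25 and 0.32 with the 5 other genes named. After scaling these became 0.73 and between -0.47 and 0.36. Cd226 lay between, with an r of 0.54 with Cd160 and 0.49 with Cd96, and between -0.14 and 0.35 with the same 5 genes. The libraries share groups, title ranges and WT SP replicate 2, so these values describe the 10 libraries and carry no p.

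**Figure D3:**
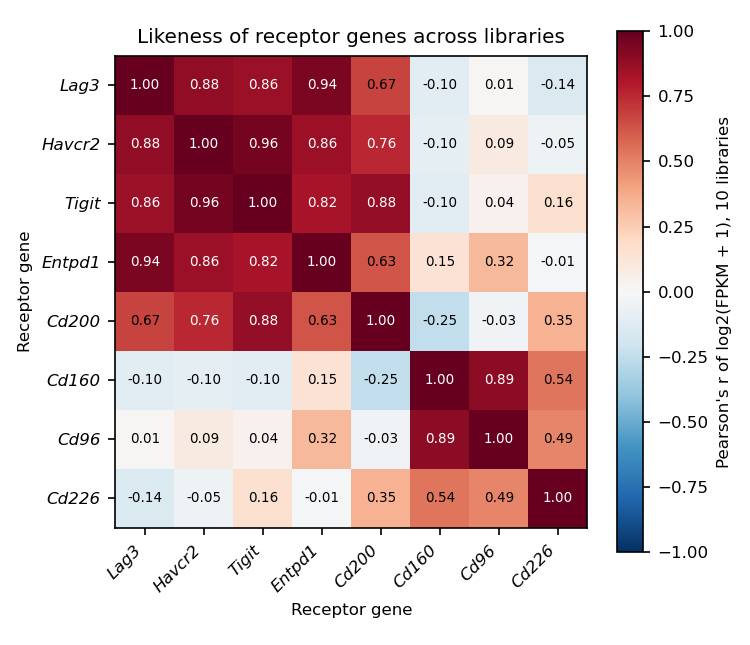
Pearson's r of log2(FPKM + 1) between each pair of the 8 genes over the 10 libraries, from -1 (blue) to 1 (red), with the value in each cell. Lag3, Havcr2, Tigit, Entpd1 and Cd200 form a block with r from 0.63 to 0.96, and Cd160 with Cd96 has 0.89.

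Over the same 10 libraries, the tested genes most like each member by r were outside the set. Lag3 was closest to Tox, a transcription factor of chronically stimulated T cells (r = 0.989), then Rgs16 and Jdp2. Tox stood at 73.5, 80.1, 20.9 and 14.9 FPKM in KO DP. The KO SP libraries had 12.6 and 12.7, and those of WT SP 10.7, 149, 13.0 and 14.4, with replicate 2 again the highest of all. Havcr2 was closest to Dusp14 (0.979), Stk39 and Apobec2, Tigit to Cela1 (0.994), Bcl2a1d and Ica1, and Entpd1 to Ccrl2 (0.979), Ccl3 and Syce1. Cd200 was closest to Nrp1 (0.978), a surface receptor also found on regulatory T cells, then Emp1 and Rab26. Cd160, Cd96 and Cd226 were closest to Fam114a2 (0.982), Rnf13 (0.980) and Ralgps2 (0.982). These ranks were computed on all 10 libraries, WT SP replicate 2 included.

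The sequence before the start sites of Havcr2, Tigit and Cd200 is shown because the first pair moved most alike and the third held the firmest difference. The windows are the 250 bases upstream in RefSeq (GRCm38.p6), Havcr2 at chr11:46454681-46454930 on the plus strand and Tigit at chr16:43664185-43664434 and Cd200 at chr16:45409054-45409303 on the minus strand, printed 5′ to 3′ with matches to 4 motifs in capitals: AP-1 (TGANTCA), the NFAT core (GGAAA or TTTCC), Runx (TGTGGT or ACCACA) and T-box (GGTGTGA or TCACACC).
Havcr2: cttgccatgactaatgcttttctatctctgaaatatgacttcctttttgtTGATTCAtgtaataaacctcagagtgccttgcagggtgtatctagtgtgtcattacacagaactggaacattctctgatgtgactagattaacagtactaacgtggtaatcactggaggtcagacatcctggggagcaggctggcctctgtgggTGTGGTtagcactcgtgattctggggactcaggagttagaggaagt
Tigit: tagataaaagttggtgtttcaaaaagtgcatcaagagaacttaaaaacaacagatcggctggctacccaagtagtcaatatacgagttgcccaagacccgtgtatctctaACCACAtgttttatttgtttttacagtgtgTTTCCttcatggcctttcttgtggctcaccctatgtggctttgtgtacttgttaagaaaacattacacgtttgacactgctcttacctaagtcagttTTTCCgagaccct
Cd200: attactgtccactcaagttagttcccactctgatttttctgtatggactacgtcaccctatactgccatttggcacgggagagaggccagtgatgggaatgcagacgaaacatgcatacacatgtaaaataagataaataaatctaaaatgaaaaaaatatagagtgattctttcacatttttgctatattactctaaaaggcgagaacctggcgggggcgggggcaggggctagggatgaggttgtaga
Havcr2 held a Runx match and an AP-1 match, Tigit a Runx match and 2 of the NFAT core, and Cd200 none of the 4. Of the 6 members with an entry, Havcr2, Tigit, Cd160 and Cd96 held a Runx match, and Tigit, Cd160, Cd96 and Entpd1 an NFAT core match. Only Havcr2 held the AP-1 letters and only Cd160 the T-box. Of 32851 promoter windows, 14% held a Runx match, 6.75% the AP-1 letters, 55.6% the NFAT core and 3.33% the T-box. Those shares are of single windows, while Cd160 and Entpd1 had 2 windows each, so genes and shares compare only roughly. A match is a description of letters and no evidence of binding.

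Ligands and partners of these receptors were mostly unchanged in call. Of 32 listed genes 22 were tested, and 2 rose and 1 fell in KO DP against WT SP, where 7.89% of all tested genes were called, with a median difference of -0.37 against -0.38 over all tested genes. Besides Cd200r1, Tnfsf14 (LIGHT, a ligand of the CD160 partner Tnfrsf14) rose by 1.31 ± 0.36 (adjusted p 0.0463), with 5.85 to 18.5 FPKM in KO DP above 2.73 to 5.74 in WT SP. Ada, the adenosine deaminase that removes the end product of the CD39 path, fell by 1.85 ± 0.31 (adjusted p 0.00497).

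Ada stood at 1.78, 2.23, 2.04 and 1.06 FPKM in KO DP; KO SP had 15.0 and 16.0, while WT SP had 8.56, 4.97, 15.4 and 9.29, with no overlap. Against KO SP it fell by 2.59 ± 0.38 (adjusted p 0.00595), and there Ada and Cd200r1 were the only calls among the 22 genes (2.07% of all tested genes). Nt5e (CD73), which makes adenosine, differed by -1.40 ± 0.42 between KO DP and WT SP (adjusted p 0.0653). Lgals9, the galectin-9 gene, differed by -1.11 ± 0.36 (adjusted p 0.0797). Without WT SP replicate 2, 3 of the 22 genes rose and 5 fell, adding Lgals3 to the former and Crtam, Btla, Nt5e and Dpp4 to the latter, where 10.5% of all tested genes were called. Between KO SP and WT SP none of the 22 was called.

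Shedding and signalling genes (Adam10, Adam17, phosphatases and adaptors) gave no call among 12 in any comparison as deposited (after scaling Dok2 was called higher and Arrb2 lower in KO DP than in WT SP), with a median of -0.43 between KO DP and WT SP. Of 21 tested genes listed as regulators linked to inhibitory receptors, 4 rose and 1 fell in KO DP against WT SP, with a median difference of 0.80. All are transcriptional regulators except Il27ra, a cytokine receptor gene, which was not called. Of all tested genes, 2.86% were called higher and 5.03% lower, and their median was -0.38. Maf rose by 1.80 ± 0.32 (adjusted p 0.00647), Ahr by 2.15 ± 0.29 (adjusted p 0.00120) and Ikzf2 by 1.33 ± 0.35 (adjusted p 0.0377). Foxp3 was listed at 28.3, 19.8, 3.52 and 4.94 FPKM in KO DP and at 0 in the other 6 libraries (adjusted p 0.00188). Tcf7, a factor of naive and memory cells, fell by 1.46 ± 0.40 (adjusted p 0.0474).

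Tox, the closest gene to Lag3, differed by 0.62 ± 0.78 between KO DP and WT SP (adjusted p 0.582). Maf, Foxp3 and Ahr also rose against KO SP (adjusted p 0.0366, 0.0163 and 0.0163), and no regulator was called between KO SP and WT SP. Without WT SP replicate 2, 9 regulators rose and 1 fell in KO DP against WT SP (4.58% of all tested genes were called higher and 10.5% in either direction), among them Tox2 (3.65 ± 0.47), Nr4a1 (2.37 ± 0.52) and Prdm1 (1.80 ± 0.51).

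H3K9me3 peaks were read from the authors' list for each library, on mm9, with their own scores and nearest-gene assignments. The lists held 85960 and 23304 peaks for WT and 111149 and 154997 for KO, so that counts of peaks cannot be compared between genotypes as they stand, and no test was made on these 2 lists against 2. In all, 56 peaks in 32 separate regions were assigned to the 8 genes, 13 and 14 in the WT lists and 13 and 16 in the KO lists. Lag3 and Entpd1 had none in any list, Cd96 had peaks in the KO lists alone, and the number of the 8 genes with a peak was 5, 5, 6 and 6. In those lists 47.8%, 33.6%, 42.5% and 45.5% of the genes tested for RNA were named by a peak.

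Most of these peaks lay away from the promoters and in repeats. Of the 56, 34 were intergenic, 20 intronic, 1 exonic and 1 at a promoter, and 39 were annotated to a repeat, 18 of them long terminal repeat (LTR) elements and 15 LINE elements. Within 10 kb of the start site lay 20. Shares of all listed peaks in these classes were not computed, so the counts describe these 56 peaks alone. The promoter peak was at Havcr2, -0.415 kb from the start, in WT replicate 2 alone, with a score of 12.6 that exceeded 20.3% of that list.

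In 4 cases a region had a peak in all 4 lists. One lay 60.3 to 60.8 kb downstream of the Cd200 start, at chr16:45347339-45350038, overlapped an endogenous retroviral LTR (LTRIS2, ERV1) in 3 lists and scored 65.5 and 72.6 for WT against 53.4 and 37.3 for KO. It ranked in the top part of each list, above 96.8% and 96.1% of peaks in the WT lists and 99.0% and 96.8% in the KO lists. At Havcr2 a region lay 20.6 to 21.0 kb from the start, chr11:46288474-46290319, in intron 5 and reaching exon 6. It was in an RLTR25A element (ERVK) in 3 lists and scored 30.8 and 58.4 for WT against 35.4 and 29.4 for KO. Its peaks exceeded 87.2% and 94.1% of the WT lists and 97.2% and 94.2% of the KO lists.

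The Tigit region, at -39.1 to -36.9 kb (chr16:43700460-43704445), was the one with the widest range of scores. WT replicate 1 had 1 peak of 3852 bases across it, with a score of 104. The other lists had peaks at separate places under that peak. Near -39 kb, in an ORR1D1 element, the scores were 25.3 in WT replicate 2 and 24.8 and 14.4 in the KO lists. Near -37 kb, WT replicate 2 scored 71.0 and KO replicate 1 scored 19.9, while KO replicate 2 had no peak. Peaks of the region exceeded 75.8% to 98.9% of the WT lists and 74.9% to 93.3% of the KO lists. At Cd226 a region about -8.1 kb from the start, in an L1Md_F LINE element, scored 22.2 and 37.9 for WT against 18.0 and 25.2 for KO. Its peaks exceeded 78.5% and 87.5% of the WT lists and 86.2% and 91.7% of the KO lists. Overlap with all 3 other lists was found for 8.07% and 27.4% of WT peaks and 5.88% and 4.37% of KO peaks overall. Scores of different lists compare only roughly, since their scaling is not given. The median score of a list was itself higher for WT (11.9 and 17.4) than for KO (9.22 and 9.32).

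Regions found in both lists of 1 genotype alone were few. Havcr2 had one 31.4 to 31.5 kb from its start, at chr11:46299062-46300709 in an LTRIS_Mus element (ERV1), with scores of 54.1 and 42.6 in the WT lists and no peak in the KO lists; Cd226 had one at -25.7 to -25.5 kb, with scores of 22.2 and 52.1. Peaks in both WT lists and neither KO list made up 3.08% and 14.5% of the WT lists. In the other direction Cd200 had a region 86.3 to 86.5 kb away in an L1VL4 element (16.0 and 9.32), Tigit one at -15.2 to -15.1 kb (13.1 and 12.1) and Cd96 one at -114.7 kb (10.7 and 6.53), where 29.2% and 19.7% of the KO lists were of that kind. Of the 32 regions, 20 were in 1 list only.

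**Figure D4:**
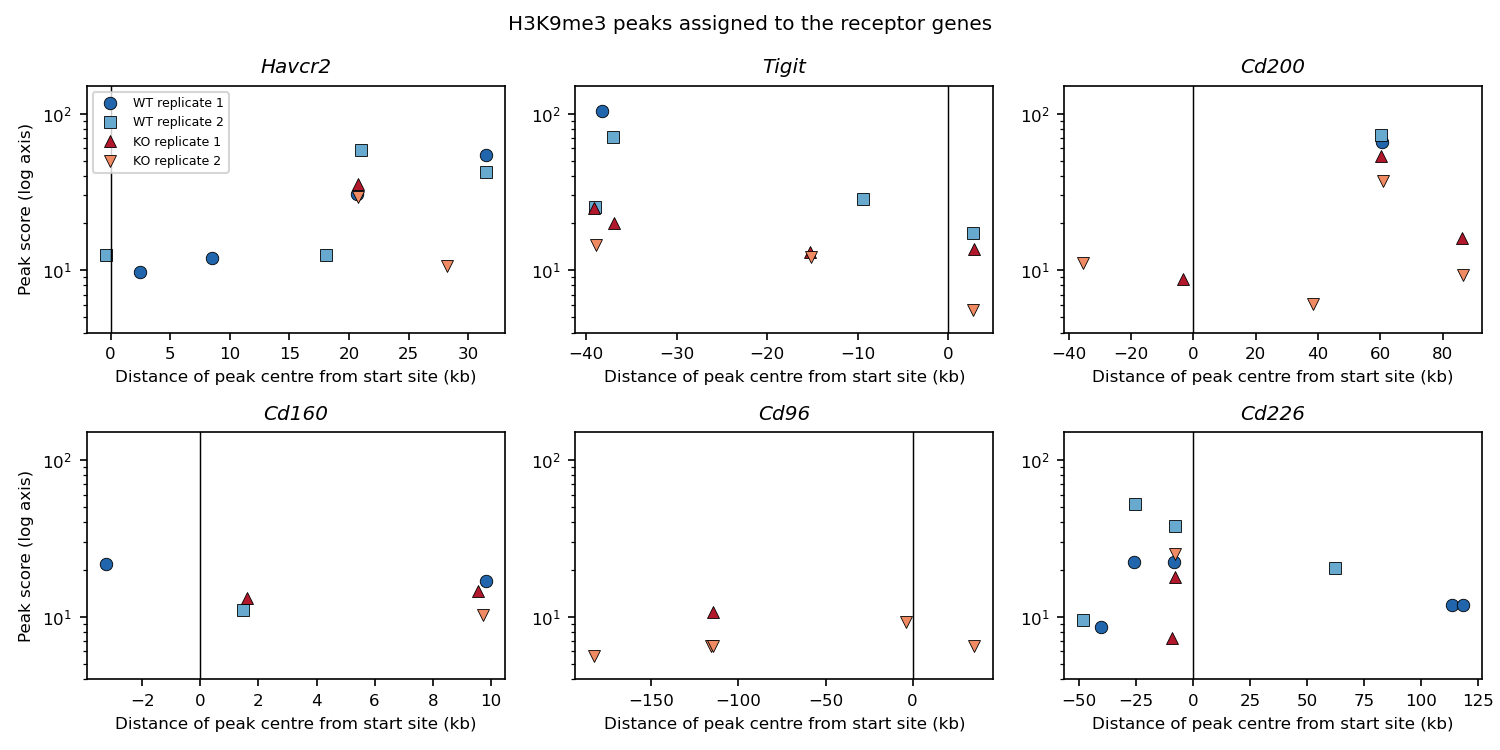
Peak score (log axis) against the distance of the peak's centre from the start site of the gene (kb) for the 56 H3K9me3 peaks assigned to 6 of the 8 genes, by list. The Cd200 region near 60 kb, the Havcr2 region near 21 kb, the Tigit region near -38 kb and the Cd226 region near -8 kb have a peak in all 4 lists, and the Havcr2 region near 31 kb in the WT lists alone.

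Peaks and RNA came from different cells, so no value links them. Cd200, whose RNA rose in KO DP, had its strongest peak at the same region in all 4 lists, and Lag3 and Entpd1 had RNA that varied between libraries with no peak assigned in any list.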

How the data were processed

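RNA libraries were made from 5 ng or less of total RNA by SMART-Seq amplification and Nextera tagmentation, per the labels' protocols. These steps do not mark the strand, so reads of genes that overlap on opposite strands mix. The values the authors deposited for RNA are in FPKM; the submitters' processing notes name TopHat, Cufflinks and mm9, with versions, annotation and filters not given in the sources used here. Without read counts, depth in reads is unknown and no counting intervals are given. The most frequent ratios of low values put relative depths at 0.799 to 1.57 of KO SP replicate 1. H3K9me3 was mapped by native ChIP with micrococcal nuclease, per the labels' protocols, and the submitters' processing notes name Bowtie, HOMER and mm9 for the peaks, with 1 list per library. The peak score is as the authors deposited it, its scaling, threshold and use of input being not given in the sources used here. Input libraries were not used here.

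Of 23700 lines, 466 repeated a symbol and were added to the first of it, giving 1 value a gene. Those averaging 0.5 FPKM or more over the libraries were tested with limma 3.58.1 (R 4.3.3, mean-variance trend) on log2(FPKM + 1), which understates changes of low genes. All 3 groups entered 1 fit, with Benjamini-Hochberg adjustment over all tested genes at 0.05, and each pair of comparisons shares a group. The fit was tested on simulated data. Scaling used median-ratio size factors on FPKM. Overlapping peaks (at least 1 base) made 1 region; descriptions used Python 3.11.15 with pandas 2.3.3, numpy 2.4.6 and scipy 1.17.1. Promoters came from RefSeq, where 6 of the 8 genes had an entry.

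Nothing in the labels says that samples of a group were separate animals, and p-values then reflect only how much these samples vary, which may be technical. Replicate numbers 1 to 4 occur in the submitters' descriptions of both KO DP and WT SP. Same-numbered libraries deviated from their group means together, with correlations of 0.119, 0.293, 0.111 and 0.103 (all over 0.1), and were therefore taken as pairs. However, KO DP replicates 3 and 4 correlated better with each other's partners (0.201 and 0.243). WT SP replicate 1 also correlated better with KO DP replicate 2 (0.147) than with its own partner. The numbers also follow the title ranges, so the pairing is uncertain.

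The 8 genes and all lists (ligands and partners, shedding and signalling, regulators, and markers of other cells) were chosen with earlier results of these data known. All 8 were named in each comparison, with up to 6 called genes per list and comparison and the 3 genes most like each by Pearson's r; Nt5e, Lgals9, Cd200r2, Cd200r4 and Tox as a regulator were named after their values were seen. Alternatives covered the pseudocount, filter, scaling, groups fitted, block, title range, repeated symbols and each library left out.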

Additional observations from a re-analysis of the deposited data

Results flagged for a closer look

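Lag3 in WT SP was singled out because 1 of its 4 libraries lay far from the others. In log2(FPKM + 1), the gap between replicate 2 (27.9 FPKM) and the nearest library (0.309 FPKM) was 0.963 of the whole range, above Dixon's 95% critical value for 4 samples. By chance about 1 group in 20 is flagged, and among all tested genes 5.9% were flagged in WT SP and 4.34% in KO DP. None of the other 7 genes was flagged in KO DP or WT SP, and KO SP, with 2 libraries, could not be examined in this way.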

How the results depend on the processing

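Members called between KO DP and WT SP numbered 1 with all libraries as deposited, 3 after scaling, 2 with the replicate block, 2 with title range as a covariate, 6 without WT SP replicate 2 and with scaling (an alternative chosen after seeing the data), and 1 to 4 with 1 library left out, 4 being without WT SP replicate 2. Between KO DP and KO SP the number was 0, then 1 after scaling, 3 with the replicate block (Lag3, Tigit and Cd200 higher; KO SP replicates 1 and 2 come from another title range than KO DP replicates 1 and 2, so the numbers may pair nothing here), 1 with title range as a covariate, 4 with title numbers 738 and 739 as a block (4 libraries with 1 residual degree of freedom, where 41.1% of all tested genes were called), and 0 to 1 with 1 library left out. The replicate block changed no call between KO SP and WT SP. The interaction with title range gave 0 to 2 members, 2 without KO DP replicate 3, where 58.5% of tested genes were called, and 1 without WT SP replicate 1. Assigned peaks fell from 56 to 20 within 10 kb, and to 40 to 43 with 1 list left out.

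Of 488 values of single genes under alternatives, 440 kept direction and call, 22 gained a call, 26 changed sign and none lost a call; no value that changed sign was called in either setting. For KO DP against WT SP, Cd160 became 0.16 after scaling, 0.23 with KO DP replicates 1 and 2 alone and 0.10 scaled without WT SP replicate 2, and up to 0.064 with 1 library left out (from -0.43). Cd96 became 0.39, 0.36 and 0.41 in the same 3 settings, and ran from -0.17 to 0.20 with 1 library left out. For KO DP against KO SP, Cd226 became 0.43 after scaling and 0.30 with KO DP replicates 1 and 2 alone (-0.21 to 0.15 with 1 library left out), and Entpd1 -0.22 with titles as a block. For KO SP against WT SP, title range as a covariate gave 0.17 for Lag3 and 0.56 for Entpd1, and the replicate block -0.47 for Havcr2 and -0.78 for Tigit; with 1 library left out the ranges were -1.40 to 0.14 for Lag3, -0.28 to 1.46 for Havcr2, -0.34 to 1.69 for Tigit and -0.52 to 0.55 for Entpd1. Causes were not tested.

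Over all genes, calls between KO DP and WT SP went from 881 to 2011 after scaling, 1435 with the replicate block, 2123 with title range, 556 with only the groups compared, 2739 scaled without WT SP replicate 2, and 308 to 1211 with 1 library left out. Scaling moved the share of higher calls, from 319 of 881 to 1027 of 2011. Between KO DP and KO SP they went from 231 to 660, 583, 468 and 86 in the first 4 of these settings, 113 with no filter, 460 with KO DP replicates 1 and 2 alone and 4587 with titles as a block, and 21 to 401 with 1 library left out. Between KO SP and WT SP they went from 13 to 20 after scaling, 346 with the replicate block, 37 with title range, 27 with only the groups compared and 8 at a mean of at least 2 FPKM.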
